A study of Mus musculus with 4 samples.

Results

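CA1 pyramidal neurons are the principal output cells of the CA1 field of the hippocampus. They were taken here as the barcodes with at least 500 detected genes that held at least 1 UMI (unique molecular identifier, 1 counted RNA molecule) of at least 3 of 8 genes, Fibcd1, Spink8, Gm10754, Gm2115, Wfs1, Mpped1, Dclk3 and Pou3f1, with Fibcd1 or Spink8 among them. At most 1 UMI of Gad1 and Gad2 together was allowed, which keeps out inhibitory neurons, and at most 2 of 7 genes of another pyramidal group (Dcn, Ndrg1, Dlk1, Tnni3k, Ccn3, Pde11a and Vegfd) could be detected. The rule found 5110 nuclei among 60288 barcodes in 4 libraries. The members were therefore chosen by the same RNA counts that describe them, and the levels of the rule genes are a description, not a finding.

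In textbook accounts of the hippocampal circuit, CA1 pyramidal neurons receive Schaffer collaterals from CA3 and direct input from the entorhinal cortex, and project to the subiculum and beyond. Endocannabinoids act there as retrograde messengers. 2-arachidonoylglycerol is made in the postsynaptic neuron by diacylglycerol lipase (Dagla), binds the presynaptic receptor CB1 (Cnr1) and is broken down by monoacylglycerol lipase, MAGL, the product of Mgll.

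The series profiled RNA of mouse hippocampal nuclei, purified on iodixanol and processed with a multiome droplet kit, in 4 libraries of 1 genotype each. They are labelled wild type, total MAGL knockout (tKO), astrocyte-specific MAGL knockout (aKO) and neuron-specific MAGL knockout (nKO). The labels used here do not give the Cre drivers, the part of the gene deleted, or the number, age and sex of the animals in a library. With 1 library per genotype no difference has a replicate check, so no test was made, and every interval below is a 95% interval that covers counting error only. Values of 4 libraries are given in the order wild type, tKO, aKO and nKO.

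The CA1 nuclei numbered 913, 1769, 1467 and 961, with 12020631, 16568568, 14904403 and 11019662 UMIs in all. Their median depth was 12029, 8335, 8945 and 10438 UMIs. The libraries held 9369, 31243, 10731 and 8945 barcodes, and pairs of libraries shared between 108 and 466 barcodes, from 1.21% to 4.63% of the smaller library. The tKO library stood apart in 2 ways. Scrublet, which scores barcodes that resemble a mixture of cells, called 32.0% of its CA1 nuclei doublets against 7.34% in wild type, 11.6% in aKO and 4.06% in nKO. It also had no female CA1 nucleus (at least 2 UMIs of Xist), whereas 411, 665 and 364 of the wild-type, aKO and nKO members were female. Values without doublets, and in male nuclei alone (a UMI of a Y-linked gene and none of Xist), are therefore given beside the results they touch.

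The rule genes describe how the members were cut and check no label, since granule nuclei were allowed at most 1 of them. In wild type Gm10754 was detected in 91.3% of the members and in 0.977% of dentate granule nuclei, Spink8 in 75.7% and 2.20%, and Fibcd1 in 55.2% and 2.93%. Dclk3, though in the rule, went the other way. It was detected in 9.42% of wild-type CA1 nuclei and in 15.5% of granule nuclei, and the granule share was the higher in tKO (10.5% and 11.2%), aKO (7.91% and 12.7%) and nKO (9.57% and 13.7%) as well. Dclk3 therefore did not mark the members against granule nuclei, and the label rests on genes outside the rule, given with the class comparison.

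Nuclei near the threshold were less strongly CA1-like. Exactly 3 rule genes were detected in 153, 494, 390 and 182 members, and 158, 431, 257 and 178 nuclei with exactly 2 lay just outside. Man1a, a mannosidase gene outside the rule, stood at 689, 663, 600 and 694 CPM in all members, CPM being UMIs of the gene per 1000000 UMIs of the class. In the members with 3 rule genes it stood at 276, 507, 464 and 463 CPM, and in the nuclei with 2 at 132, 238, 208 and 168 CPM. In every library the nuclei just outside the rule were thus lower in this gene than those just inside, and both were lower than the members as a whole.

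CA1 nuclei made up 9.81% of wild-type barcodes with at least 500 genes (9.22% to 10.4%), 5.72% in tKO (5.46% to 5.98%), 13.8% in aKO (13.1% to 14.4%) and 10.9% in nKO (10.2% to 11.5%). The lowest and the highest library thus lay on either side of wild type, with intervals that did not overlap. For every 100 dentate granule nuclei there were 55.7, 47.7, 88.7 and 70.2 CA1 nuclei. For every 100 CA2/CA3 nuclei there were 216, 195, 187 and 209, a narrower range in which aKO was the lowest. Without doublets the shares were 9.43%, 5.09%, 12.9% and 10.6%. The rule reads detected genes and so depends on depth: in nuclei thinned to 2000 UMIs it was met by 2.00%, 1.12%, 2.66% and 2.12%. The order of these shares was the same in each of these settings, though the intervals of wild type and nKO overlapped in each.

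**Figure D1:**
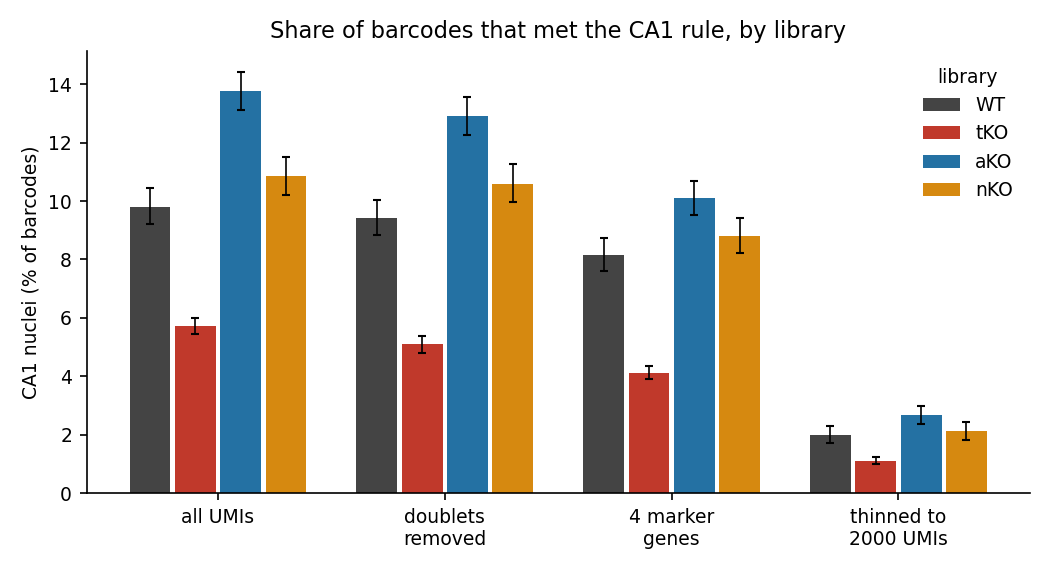
Share of barcodes that met the CA1 rule in each of the 4 libraries (y axis, percent of barcodes), for all UMIs, with doublets removed, with at least 4 marker genes and after thinning to 2000 UMIs; bars are 95% intervals of counting error. In each setting tKO is the lowest and aKO the highest, 5.72% and 13.8% with all UMIs.

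What the members share outside the rule was read from UMI sums per library, set beside 8366 dentate granule nuclei and 2573 CA2/CA3 nuclei of the same libraries. A gene was counted where CA1 lay at least 2-fold above or below the other class in all 4 libraries, with at least 200 UMIs over the 8 sums. Against granule nuclei 703 of 13317 genes were higher in CA1 (5.28%) and 788 lower (5.92%). Against CA2/CA3 nuclei 451 of 12615 were higher (3.58%) and 336 lower (2.66%). Both at once held for 202 higher and 79 lower of 12492 genes. The classes were cut from the same RNA, so these counts describe the classes and test nothing.

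Of 10 CA1 and pyramidal genes that the rule did not use, 6 were at least 2-fold higher in CA1 than in granule nuclei, and none was lower. Against CA2/CA3 nuclei 7 were higher, among them a gene used to define CA2/CA3 nuclei, and none was lower. Over all genes 5.28% and 3.58% were higher. The list summed to less in CA1 than in either class in every library, in wild type 4871 CPM against 5769 in granule and 5216 in CA2/CA3 nuclei. Man1a stood at 182, 183, 139 and 146 CPM in CA2/CA3 and at 5.49, 27.4, 18.9 and 14.7 in granule nuclei, lower than in CA1 by 1.85 to 2.25 and by 4.59 to 6.95. In wild-type nuclei thinned to 2000 UMIs, Man1a was detected in 64.3% of CA1, 28.9% of CA2/CA3 and 0.923% of granule nuclei, whose median depths before thinning were 12029, 16601 and 8189.5 UMIs. Neurod6, a factor of pyramidal neurons at large, separated CA1 from granule nuclei but not from CA2/CA3, with 121, 80.0, 105 and 82.0 CPM in CA1 and 122, 88.0, 114 and 82.8 in CA2/CA3. Bcl11b went the other way, at 267, 265, 271 and 277 CPM in CA1 and 297, 282, 304 and 290 in granule nuclei but only 27.2, 44.5, 37.9 and 29.2 in CA2/CA3. Lefty1, a secreted TGF-beta family inhibitor, was low but followed the class, at 7.07, 5.01, 7.38 and 6.81 CPM in CA1 and at most 0.805 in CA2/CA3.

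Among the genes named for lying furthest above both other classes were the following. Stac, an adaptor of voltage-gated calcium channels, stood at 97.5, 97.1, 92.3 and 110 CPM in CA1, at 2.80, 6.05, 1.31 and 4.49 in CA2/CA3 and at 2.13, 3.23, 4.65 and 3.06 in granule nuclei. The log2 difference was at least 3.98 from CA2/CA3 and at least 4.29 from granule nuclei. Adgrl2, a latrophilin that organises synapses on CA1 dendrites, stood at 174, 160, 168 and 153 CPM, against at most 19.4 in CA2/CA3 and 19.2 in granule nuclei, and both of these were the tKO library. Ntm, the adhesion molecule neurotrimin, stood at 1515, 1490, 1408 and 1619 CPM, against 98.5, 218, 138 and 115 in CA2/CA3. Ntm in granule nuclei lay close to CA2/CA3, at 97.5, 210, 137 and 89.8 CPM. Galntl6, a glycosyltransferase-like gene, was abundant in the members at 5644, 5135, 5471 and 5777 CPM, intermediate in CA2/CA3 at 778, 831, 645 and 768, and lowest in granule nuclei at 61.6, 171, 142 and 77.4. Of the low-level genes above both classes, Chrna5 (a nicotinic receptor subunit) stood at 11.1, 10.6, 12.1 and 11.5 CPM in CA1. Htr1b, a serotonin receptor of axon terminals, stood at 8.98, 6.88, 6.84 and 6.72 CPM in CA1, from 108, 114, 102 and 74 UMIs, against 0, 2, 0 and 1 UMIs in CA2/CA3. Set against the limit of 3 UMIs that a count of 0 allows, it was at least 21.4-fold higher in CA1 in wild type and at least 22.7-fold in aKO. Ror1, a receptor for Wnt ligands, stood at 250, 231, 286 and 254 CPM in CA1 and at 15.0, 15.0, 12.9 and 15.9 in CA2/CA3, whereas granule nuclei held 173, 144, 156 and 156.

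Genes lower in CA1 were led by markers of the other classes. Stxbp6, which binds SNARE proteins, stood at 32.7, 62.2, 40.2 and 26.6 CPM in CA1 and at 965, 904, 920 and 953 in granule nuclei. Mndal, an interferon-inducible gene, stood at 5.82, 7.60, 8.66 and 5.63 CPM in CA1 and at 107, 101, 100 and 94.6 in CA2/CA3. Prkcd, a protein kinase C, stood at 0.915, 0.905, 1.61 and 1.18 CPM in CA1 and at 14.9 to 21.1 in CA2/CA3. These genes were named for their low ratios in every library, so values that do not overlap between the classes follow from that choice.

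**Figure D2:**
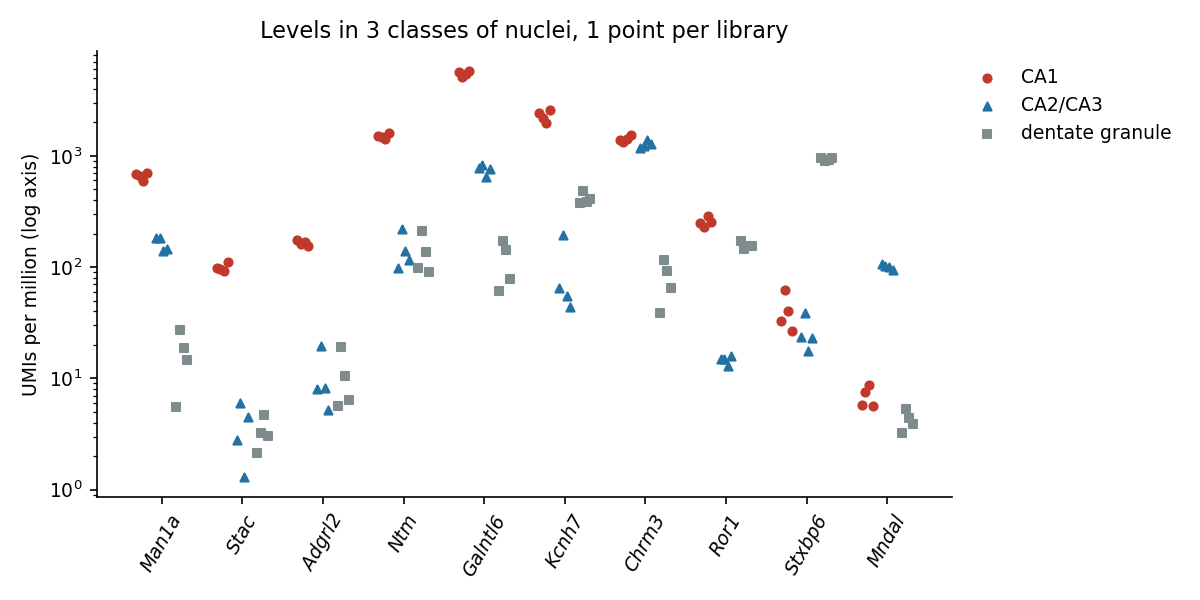
Level of 10 genes (y axis, CPM of the class, log scale) in CA1, CA2/CA3 and dentate granule nuclei, 1 point per library. Stac, Adgrl2, Ntm and Galntl6 are highest in CA1, Chrm3 is alike in CA1 and CA2/CA3, Stxbp6 is highest in granule nuclei, and Mndal in CA2/CA3.

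Counts of listed genes are read against the shares over all genes. These were 5.28% higher and 5.92% lower than granule nuclei, and 3.58% higher and 2.66% lower than CA2/CA3. Listed genes were kept by their UMIs in CA1 nuclei alone, whereas the shares rest on UMIs of both classes. Listed genes low in CA1 but abundant in the other class could thus be left out. Such a choice favours counts of higher genes, and its part was not tested. Of 32 potassium and related channel genes, 7 were counted higher and 3 lower in CA1 than in granule nuclei, and 7 higher and 3 lower than in CA2/CA3. Pex5l encodes an auxiliary protein of ion channel trafficking and stood at 2171, 2108, 1999 and 2276 CPM in CA1 against 212, 291, 237 and 239 in CA2/CA3. Pex5l was thus higher in CA1 than in CA2/CA3 by 2.86 to 3.35 on the log2 scale. Kcnh7, an ERG potassium channel, stood at 2422, 2181, 1954 and 2585 CPM in CA1 and at 65.0, 193, 55.3 and 43.8 in CA2/CA3. Kcnq5, an M-current subunit, ran between the classes: 1773, 1674, 1681 and 1696 CPM in CA1, above granule nuclei (83.5, 377, 266 and 174) and below CA2/CA3 (4850, 4817, 5145 and 5037). Of 29 sodium and calcium channel and pump genes 5 were higher and 4 lower than in granule nuclei, and 2 higher and 1 lower than in CA2/CA3.

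Receptor genes were counted in the same way. Of 22 glutamate receptor genes 1 was higher and 3 lower than in granule nuclei, and 4 were higher and 1 lower than in CA2/CA3. Grm3, a metabotropic receptor, stood at 96.4, 118, 52.7 and 91.4 CPM in CA1 and at 17.7, 31.3, 10.2 and 7.30 in CA2/CA3, and Grik4, a kainate receptor subunit of CA3 synapses, was lower in CA1 by 2.22 to 2.59 on the log2 scale. Of 14 GABA receptor genes 2 were higher and 2 lower than in granule nuclei, and 4 were higher than in CA2/CA3. Gabra3 was above both classes, by 2.49 to 4.52 and 1.28 to 2.07 on the log2 scale, whereas Gabrd, a subunit of tonic inhibition typical of granule cells, was below granule nuclei by 2.14 to 2.52 and above CA2/CA3 by 1.75 to 2.91. Of 24 receptors of neuromodulators 6 were higher and 3 lower than in granule nuclei, and 5 higher and 1 lower than in CA2/CA3. Chrm3, a muscarinic receptor, stood at 1391, 1344, 1428 and 1533 CPM in CA1 and at 38.7, 117, 92.4 and 65.4 in granule nuclei. Its difference from CA2/CA3 was small, 0.03 to 0.28.

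Single genes of cyclic AMP and calcium signalling were higher than in CA2/CA3, picked from the lists here for their size. Adcy8, a calcium-stimulated cyclase, stood at 202, 194, 125 and 205 CPM against 27.0, 41.3, 14.3 and 15.6. Adcy1 was higher by 1.76 to 1.92 on the log2 scale, Itpr1, the inositol trisphosphate receptor, by 1.76 to 2.07, and Cacna1g, a T-type calcium channel, by 1.69 to 2.00. Of 39 postsynaptic genes 9 were higher and 1 lower than in granule nuclei, and 2 were higher and 1 lower than in CA2/CA3. Homer1, a postsynaptic scaffold that is also induced by activity, stood at 593, 461, 464 and 615 CPM, above granule nuclei by 1.62 to 2.10.

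Adhesion and guidance molecules split by class in both directions. Of 50, 9 were higher and 9 lower than in granule nuclei, and 8 higher and 6 lower than in CA2/CA3. Tenm3, a teneurin of the projection from proximal CA1 to distal subiculum, stood at 1340, 1128, 1208 and 1495 CPM in CA1, at 107, 190, 99.7 and 109 in CA2/CA3 and at 120, 207, 165 and 126 in granule nuclei. Cdh9, a cadherin of mossy fibre synapses, was lower than in granule nuclei by 2.67 to 3.74 and than in CA2/CA3 by 2.21 to 3.01. Of 29 synaptic vesicle genes 2 were higher and 7 lower than in granule nuclei, and 3 higher and 2 lower than in CA2/CA3. Synpr (synaptoporin) and Rph3a (rabphilin) were among those lower than in both classes, Synpr by 3.48 to 5.32 against granule nuclei.

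Of 23 endocannabinoid genes 3 were at least 2-fold higher than in granule nuclei (Cnr1, Chrm3 and Dgkz) and 1 lower (Napepld). Against CA2/CA3, Dgki was higher, and Napepld and Ptgs2 were lower. These counts are read against the same shares over all genes. Cnr1 stood at 82.6, 82.9, 76.7 and 78.1 CPM in CA1, at 81.4, 87.3, 84.8 and 82.0 in CA2/CA3 and at 7.75, 13.2, 9.71 and 6.46 in granule nuclei, so CA1 and CA2/CA3 overlapped and both lay above granule nuclei. Napepld, a phospholipase D that makes anandamide, stood at 16.1, 15.6, 16.1 and 10.5 CPM in CA1, at 52.3, 40.8, 45.9 and 39.9 in CA2/CA3 and at 103, 72.7, 87.5 and 85.4 in granule nuclei. Mgll itself stood at 73.8, 59.3, 86.5 and 76.5 CPM in CA1 nuclei, lower within each library than in granule nuclei (122, 100, 141 and 129) and CA2/CA3 nuclei (142, 111, 161 and 132).

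The group capped by the rule held 802 nuclei that met the CA1 rule apart from the cap, so its likeness to CA1 is built in, and its UMI sums were smaller than those of the other classes. Against it 51 of 11802 genes were at least 2-fold higher in CA1 in every library (0.432%) and 61 lower (0.517%). From these, 4 genes were picked after their values were seen. Bcan (brevican, of the extracellular matrix) stood at 21.5, 20.9, 25.8 and 28.8 CPM in CA1 and at 3.27, 5.04, 5.75 and 5.53 in the capped group. Luzp2 stood at 354, 316, 254 and 335 CPM against 94.1, 96.9, 66.5 and 89.0. Adra1a, an adrenergic receptor, stood at 6.57, 12.2, 11.5 and 11.3 CPM against 64.7, 62.8, 79.1 and 83.5 in the capped group, and Nnat (neuronatin) at 95.4, 123, 147 and 92.5 against 449, 417, 588 and 330. The neurokinin receptor gene Tacr3 was low in CA1, at 3.83, 6.34, 5.70 and 4.45 CPM, against 2.05, 13.9, 13.7 and 2.76 in the capped group, so its order between the groups differed among libraries. Cped1 in CA1 stood at 5.49, 7.67, 6.04 and 4.81 CPM, and Vegfd, which the cap uses, at 2.16, 4.10, 2.89 and 3.18.

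Among themselves the members varied most in a small number of genes. After thinning to 2000 UMIs, the variance over nuclei divided by the mean was at least 1.5 in all 4 libraries for 154 of 4905 genes, where counting alone gives about 1. Dpp10, an auxiliary subunit of potassium channels, had 10.8, 12.03, 10.9 and 17.6. Lrrtm4, a postsynaptic adhesion protein abundant in granule cells, had 10.8, 8.59, 9.50 and 10.9, Kcnip4 had 6.50, 6.53, 6.37 and 6.10, and Tenm3 had 6.11, 5.24, 6.67 and 6.40. Without doublets Dpp10 had 11.1, 13.2, 10.1 and 18.5 and Lrrtm4 11.7, 10.3, 10.9 and 11.4. The spread of these genes thus stayed large among nuclei not called doublets, and was lower only for Dpp10 in aKO.

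RNA of other cell types was present in the members and differed between libraries. Markers of inhibitory neurons (7 genes) summed to 14.9, 129, 23.8 and 10.5 CPM in all members, and to 8.71, 17.5, 14.2 and 9.26 without doublets. Granule markers summed to 478, 687, 506 and 428 CPM, and to 410, 382, 340 and 368 without doublets. Oligodendrocyte markers summed to 143, 236, 95.1 and 101 CPM, and to 115, 111, 87.3 and 100 without doublets. The tKO library was the highest in all 3 sums with doublets in, and remained the highest without them only in the inhibitory sum.

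**Figure D3:**
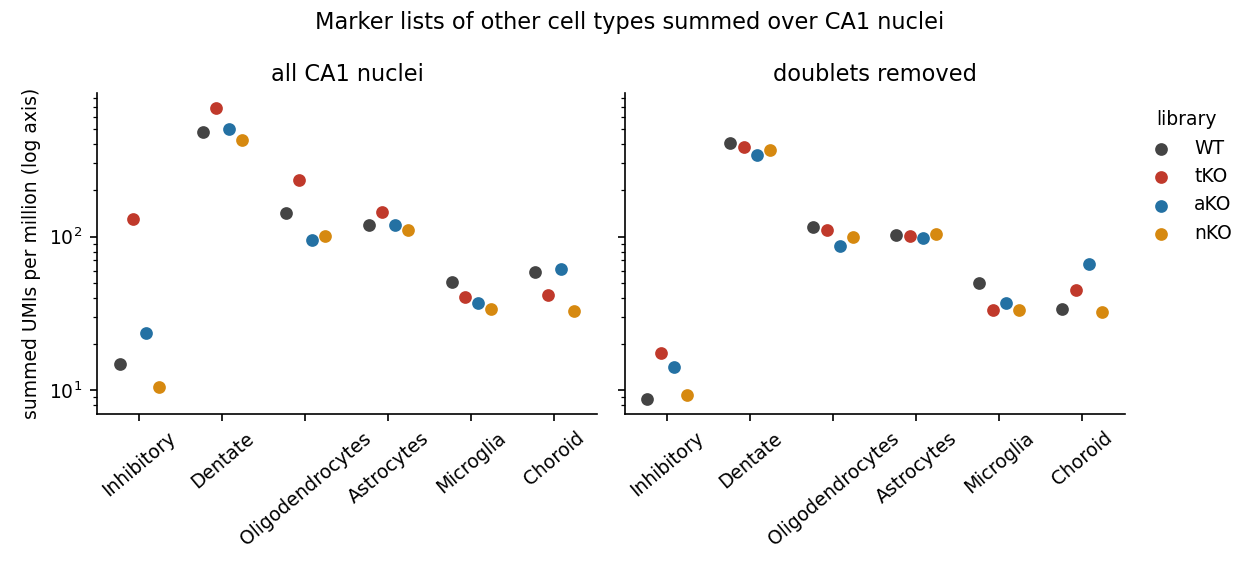
Summed level of marker genes of 6 other cell types in CA1 nuclei of each library (y axis, CPM of the class, log scale), for all members and without doublets. The inhibitory sum of tKO is 129 CPM with all members and 17.5 without doublets.

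Each knockout library was then set against the wild-type library to see how CA1 nuclei of different genotypes compare. The 3 comparisons share the wild-type library, so a value peculiar to it appears in all of them. A gene was counted as apart at 1.5-fold or more, with at least 200 UMIs over the 2 sums. Listed genes were instead taken with at least 200 UMIs over the CA1 nuclei of all 4 libraries, in every setting. Their counts below can therefore hold genes under the minimum of the shares beside them. In tKO 434 of 9695 genes were apart (4.48%), 212 higher (2.19%) and 222 lower (2.29%). In aKO 193 of 9495 were apart (2.03%), 77 higher (0.811%) and 116 lower (1.22%). In nKO 269 of 9025 were apart (2.98%), 47 higher (0.521%) and 222 lower (2.46%). Pairs of knockout libraries were apart in 3.66% of genes (tKO and aKO), 3.15% (tKO and nKO) and 1.4% (nKO and aKO). Pairs of knockouts thus ranged from 1.4% to 3.66%, and pairs with wild type from 2.03% to 4.48%. Without doublets the shares against wild type were 2.92%, 1.87% and 2.99%, and in tKO the higher genes made up 0.537% and the lower 2.38%. Without doublets pairs of knockouts were apart in 2.1% (tKO and aKO), 1.09% (tKO and nKO) and 1.3% (nKO and aKO). In male nuclei alone the shares against wild type were 4.94%, 1.99% and 1.88%, with 3.32%, 0.994% and 0.802% higher and 1.62%, 0.994% and 1.08% lower. Female and male nuclei of 1 library were apart in 0.719% of genes in wild type, 0.334% in aKO and 0.791% in nKO. All genes of the X chromosome were left out of these shares, unlike those between libraries. In granule nuclei the shares against wild type were 5.81%, 4.19% and 3.11%, higher than in CA1 in each knockout, though their sums held other numbers of UMIs and the difference was not tested.

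**Figure D4:**
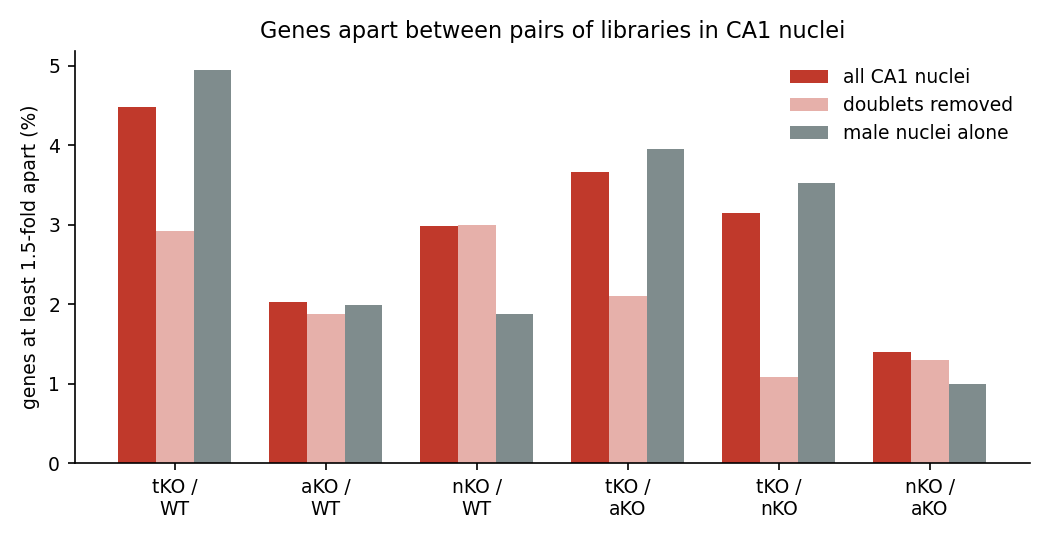
Percent of genes at least 1.5-fold apart in CA1 nuclei (y axis) for the 6 pairs of libraries, with all members, without doublets and in male nuclei alone. The tKO share over wild type is 4.48% with all members and 2.92% without doublets, and nKO against aKO is the lowest pair with all members, at 1.4%.

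Mgll in CA1 nuclei was lower than in wild type in the tKO library alone. It was lower in tKO than in wild type by 0.31 on the log2 scale and higher by 0.23 in aKO and 0.05 in nKO. Without doublets it was lower in tKO by 0.48 (0.32 to 0.65), and higher by 0.14 in aKO and 0.02 in nKO. The assay counts tags near the 3′ end of transcripts, and the labels do not say which part was deleted, so this level checks no label. Of the 23 genes of the endocannabinoid list 1 was higher in tKO, none was apart in aKO, and 1 was lower in nKO, near the shares of all genes apart (4.48%, 2.03% and 2.98%). The first was Plcb4, a phospholipase C, which stood at 8.49 CPM in wild type and 15.6 in tKO, a log2 difference of 0.87 that was 0.46 without doublets. The last was Napepld, lower in nKO by 0.60. Without doublets 0 genes of the list were higher and 1 was lower in tKO, where 0.537% and 2.38% of all genes were.

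Of 9007 genes with at least 200 UMIs in each of the 3 comparisons, 10 were at least 1.5-fold higher and 11 lower in all 3 knockouts. Ide, the insulin-degrading enzyme, was among them and was picked after its values were seen. It stood at 35.5, 83.4, 65.5 and 77.0 CPM, higher by 1.23, 0.88 and 1.12 on the log2 scale and by 1.35, 0.86 and 1.19 in male nuclei alone. In granule nuclei Ide was higher by 1.08, 0.92 and 1.08, and in CA2/CA3 it stood at 45.4, 101, 80.2 and 97.3 CPM. The higher values were thus not particular to CA1. The naming rule differs, since it sets the 200 UMIs over all 4 libraries together, asks for a level in CA1 no lower than in the other nuclei and leaves out predicted genes. It gave 5 higher and 4 lower genes, of which Bmp1, Pxn and Hypk are also among those counted above. Fbln2 (fibulin 2, of the extracellular matrix) stood at 5.57, 11.6, 10.7 and 9.07 CPM. Female nuclei of wild type lay above male ones by 1.47 on the log2 scale, and its differences in male nuclei alone were 1.91, 1.81 and 1.77. Bmp1, a procollagen protease, stood at 13.5, 22.3, 21.4 and 24.0 CPM, and without doublets its differences of 0.56 in tKO and 0.55 in aKO were under 1.5-fold. Pxn, the focal adhesion adaptor paxillin, stood at 14.1, 22.9, 22.4 and 22.8 CPM, or 0.69 (0.43 to 0.97), 0.66 (0.39 to 0.94) and 0.68 (0.40 to 0.98) above wild type on the log2 scale. In male nuclei alone the Pxn differences were 0.52, 0.34 and 0.52, under the 1.5-fold limit in each knockout. The others were Slc14a2, a urea transporter (4.41, 7.24, 11.9 and 9.71 CPM), and Rnf17, a germ cell gene (2.08, 6.82, 4.63 and 5.90 CPM). Rnf17 was lower in the female nuclei of wild type than in the male ones, by 2.19 on the log2 scale. In male nuclei alone Slc14a2 in tKO (0.45) and Rnf17 in aKO (0.54) were under 1.5-fold.

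The 4 lower genes that the naming rule took were at low levels, and more abundant ones follow with the chaperones. Med9, a Mediator subunit, stood at 6.32, 3.32, 3.22 and 2.81 CPM, Rsph14 at 7.57, 3.98, 4.63 and 3.27, and Atg101, of the autophagy initiation complex, at 8.82, 5.19, 5.77 and 5.08. Hypk, a chaperone-like partner of huntingtin, stood at 14.1, 8.03, 7.72 and 7.80 CPM, and was lower by 0.65, 0.49 and 0.50 on the log2 scale in male nuclei alone. In male nuclei Atg101 was lower in aKO by 0.27, under 1.5-fold, and in nuclei thinned to 2000 UMIs its nKO difference was 0.022, of the other sign. The naming rule asks that the 3 knockouts lie on 1 side of wild type, so in all 9 genes this was fixed by the choice. Wild type was the common reference.

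The genes named by the size of their tKO ratio held these. Rasl11b, a small GTPase, stood at 19.9 CPM in wild type and 10.7 in tKO (log2 difference -0.89, -1.18 to -0.61), and at -0.58 in male nuclei alone. Angptl2, a secreted glycoprotein, stood at 15.0 and 7.18 CPM (-1.06, -1.41 to -0.72), and at -0.76 without doublets. Apobec4 stood at 16.1 and 8.15 CPM. Brf2, a factor of RNA polymerase III, stood at 12.2 and 6.46 CPM, and Hacd4 at 16.5, 8.63, 16.8 and 11.6. Pik3r2, a regulatory subunit of PI3 kinase, was higher, at 7.90 and 13.6 CPM (0.78, and 0.71 without doublets), and so was Wipi1, of autophagy, at 12.8 and 19.9 CPM (0.63, and 0.58 without doublets). Several of the genes printed for the knockouts overlap a named gene on the other strand: Angptl2 (Ralgps1), Apobec4 (Rgl1), Brf2 (Adgra2), Hacd4 (Focad), Amz1 (Gna12), Dbp (Sphk2), Leng9 (Leng8), Rsph14 (Gnaz), Hypk (Serinc4), Rab3a (Mpv17l2) and Nnat (Blcap). Whether reads of such partners entered these counts was not tested, nor was it for genes such as Slc14a2, Man1a and Camk2d that overlap predicted genes. Overlaps on the same strand were not looked for.

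In aKO, Amz1, a metallopeptidase gene, stood at 12.01 CPM against 5.24 in wild type (1.18, 0.77 to 1.63). Dbp, a transcription factor with daily oscillation, stood at 5.16, 7.12, 9.59 and 9.71 CPM, higher by 0.88 in aKO and 0.90 in nKO. Igfbp4, a binding protein of insulin-like growth factors, stood at 24.3 CPM in wild type and 13.2 in aKO (-0.88, -1.15 to -0.61). Folh1, a peptidase that releases glutamate from NAAG, stood at 12.1 CPM in wild type and 6.64 in aKO (-0.87, and -0.60 without doublets). Grm3, the receptor for NAAG, stood at 96.4 and 52.7 CPM, lower in aKO by 0.87, by 0.72 without doublets and by 0.68 in male nuclei alone. The calcium-stimulated cyclase gene Adcy8 stood at 202 and 125 CPM, lower by 0.70, and by 0.45 in male nuclei alone.

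In nKO, Leng9 stood at 15.9 CPM against 6.82 in wild type (1.21, 0.83 to 1.62) and Cdk9, the kinase of the elongation factor P-TEFb, at 39.9 against 22.5 (0.82, 0.60 to 1.05). Muc3a stood at 18.8 against 11.1 CPM (0.76). Tmsb4x, thymosin beta 4, which binds actin monomers, stood at 243, 190, 167 and 124 CPM, lower in nKO by 0.97 (0.87 to 1.06) and by 0.80 in male nuclei alone. Microglia also express Tmsb4x strongly, and their marker sum in the members was 50.4, 40.6, 36.9 and 33.9 CPM, or 50.0, 33.4, 37.0 and 33.4 without doublets. Its part was not tested, and without doublets Tmsb4x was lower in nKO by 0.94. In granule nuclei without doublets Tmsb4x stood at 238.5, 172, 129 and 98.4 CPM, lower in nKO by 1.28, so the lower values were not particular to CA1. Hras stood at 17.2, 10.4, 12.1 and 9.62 CPM, highest in wild type.

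If the labels hold, tKO and nKO lack MAGL in neurons. Of 11357 genes, 10 were at least 1.5-fold above and 15 below wild type and aKO in both of these libraries. The split of tKO and aKO from the other 2 libraries gave 16 and 3, and the split that follows no cell type gave 2 and 20. Among the genes named for the neuronal split, which are those with the widest gap between the libraries under the naming filters, Nr4a2 stood at 51.0, 75.3, 36.6 and 82.1 CPM. Its difference between tKO and wild type, 0.56 on the log2 scale, was under 1.5-fold, so it is not among the 10. Trim36, a ubiquitin ligase, stood at 3.91, 6.46, 3.22 and 6.44. Lrp2 (megalin, a receptor abundant in choroid plexus) stood at 5.99, 2.90, 4.96 and 1.81 CPM, while choroid plexus markers in the members summed to 58.8, 41.9, 61.9 and 32.8 CPM. Without doublets the choroid plexus sums were 34.0, 44.7, 66.1 and 32.4 CPM, with wild type below tKO, and Lrp2 was lower than in wild type by 1.28 in tKO and 1.66 in nKO. The part of choroid plexus RNA in the Lrp2 values was not tested.

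Several abundant chaperones were highest in wild type. Of 12 heat shock and glucocorticoid response genes none was at least 1.5-fold higher in a knockout, and 2, 4 and 3 were lower in tKO, aKO and nKO (2.29%, 1.22% and 2.46% of all genes were), with medians of -0.29, -0.46 and -0.34 on the log2 scale against medians of all genes between -0.02 and -0.01. Hspa8, a constitutive HSP70, stood at 190, 111, 96.1 and 93.3 CPM, lower by 0.77 (0.68 to 0.86), 0.98 and 1.02. Hsp90ab1 stood at 237, 141, 133 and 110 CPM, and Hsp90aa1, its inducible relative, at 181, 136, 117 and 101. Hspa5, the chaperone of the endoplasmic reticulum, stood at 102, 83.0, 67.9 and 76.3 CPM. Others of the list did not follow: Dnajb5, an HSP40 cochaperone, stood at 26.8, 24.02, 24.4 and 28.8 CPM, and Sgk1, a kinase induced by glucocorticoids, at 126, 149, 152 and 156, lowest in wild type.

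In male nuclei alone 1, 2 and 3 of the 12 genes were lower (1.62%, 0.994% and 1.08% of all genes), and without doublets in male nuclei 0, 2 and 3 (1.49%, 1.13% and 1.07% of all genes). Hspa8 was lower in male nuclei by 0.61, 0.72 and 0.74, and within wild type it was higher in female nuclei by 0.30. In granule nuclei Hspa8 was lower by 0.51, 0.93 and 0.86 and in CA2/CA3 nuclei by 0.81, 0.91 and 0.93, so the lower values were not particular to CA1. Transcripts of nuclear-encoded oxidative phosphorylation genes made up 0.306%, 0.256%, 0.256% and 0.229% of CA1 UMIs. Genes with symbols that begin with Rpl or Rps and a digit made up 0.2601%, 0.2403%, 0.227% and 0.201%, also highest in wild type. That pattern takes ribosomal protein genes and also matches the Rps6k kinase genes. Mitochondrial genes made up 0.0292%, 0.0317%, 0.0221% and 0.00783%, highest in tKO and lowest in nKO. Meg3, a nuclear RNA, made up 0.574%, 0.691%, 0.649% and 0.695%, lowest in wild type. Their part in the chaperone values was not tested.

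Activity-induced genes were apart from wild type in a minority of cases in each knockout. Many of them are switched on within minutes of strong synaptic input. Of 30 listed, the 25 with enough UMIs in CA1 nuclei were read, a choice that favours genes high in CA1. In every library 13 were at least 2-fold higher in CA1 than in granule nuclei and 2 lower, against 5.28% and 5.92% of all genes. Against CA2/CA3 nuclei 6 were higher and 1 lower, where 3.58% and 2.66% of all genes were. Against wild type 4 of 25 were lower in tKO and 6 in aKO, with none higher, and in nKO 2 were higher and 2 lower. Over all genes 2.29%, 1.22% and 2.46% were lower and 2.19%, 0.811% and 0.521% higher. Fos, counted lower in aKO, did not reach the minimum of these shares, as its UMIs given below show. The medians were -0.21, -0.29 and 0.16 on the log2 scale. In male nuclei alone the counts were 2 higher and 2 lower in tKO, 4 lower in aKO, and 4 higher and 2 lower in nKO. Over all genes in male nuclei 3.32%, 0.994% and 0.802% were higher and 1.62%, 0.994% and 1.08% lower.

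Calcium and cAMP act on many of these genes through cAMP response elements (CRE). Of the 25 genes 19 had an entry among the RefSeq promoters of GRCm38.p6, and 12 of these held the CRE core TGACG, read on either strand (CGTCA on the other), in the 250 bases before the start, against 17.8% of 32851 promoters of that length. A match describes the letters of the window and is not a measured site. For each listed gene 1 start was read, whereas the 32851 promoters are those of 27025 genes. The CArG box (CC, a run of A or T, GG) was also searched and stood in 0 of the 19, against 1.47% of all promoters. Jun and Ier5, also named below, held no CRE core. The promoters of 5 of the genes named next, each chosen from those with a core, are shown 5′ to 3′ on the strand of the gene. Each core is in capitals, and in Btg2 and Scg2 2 cores overlap in 1 palindrome. The windows lie at chr12:85473640-85473889 (Fos, plus strand), chr6:85513590-85513839 (Egr4, minus), chr1:134079156-134079405 (Btg2, minus), chr1:79440027-79440276 (Scg2, minus) and chr4:48045055-48045304 (Nr4a3, plus).
Fos: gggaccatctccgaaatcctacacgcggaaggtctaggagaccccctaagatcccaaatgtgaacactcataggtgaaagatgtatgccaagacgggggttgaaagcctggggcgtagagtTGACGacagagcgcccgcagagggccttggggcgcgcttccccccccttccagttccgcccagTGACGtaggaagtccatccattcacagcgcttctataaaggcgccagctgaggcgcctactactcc
Egr4: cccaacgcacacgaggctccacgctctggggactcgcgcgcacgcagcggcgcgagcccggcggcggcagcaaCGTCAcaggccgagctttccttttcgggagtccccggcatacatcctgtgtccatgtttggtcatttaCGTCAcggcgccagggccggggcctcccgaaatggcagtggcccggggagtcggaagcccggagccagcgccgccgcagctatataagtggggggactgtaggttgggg
Btg2: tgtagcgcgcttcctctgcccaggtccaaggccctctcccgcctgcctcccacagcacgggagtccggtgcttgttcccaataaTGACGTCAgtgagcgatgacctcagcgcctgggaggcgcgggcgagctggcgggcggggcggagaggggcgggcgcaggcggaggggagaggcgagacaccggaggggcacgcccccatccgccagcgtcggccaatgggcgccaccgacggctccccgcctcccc
Scg2: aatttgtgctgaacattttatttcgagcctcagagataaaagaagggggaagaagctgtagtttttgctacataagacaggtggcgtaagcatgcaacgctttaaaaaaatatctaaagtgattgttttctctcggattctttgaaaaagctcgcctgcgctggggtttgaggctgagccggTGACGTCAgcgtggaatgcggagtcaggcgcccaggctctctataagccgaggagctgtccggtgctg
Nr4a3: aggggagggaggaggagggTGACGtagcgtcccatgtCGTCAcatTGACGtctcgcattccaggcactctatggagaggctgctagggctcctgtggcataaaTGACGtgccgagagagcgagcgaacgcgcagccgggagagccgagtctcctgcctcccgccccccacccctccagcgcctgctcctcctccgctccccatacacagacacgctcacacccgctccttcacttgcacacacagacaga

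Of the activity-induced genes, 4 that were lowest in aKO are given first, chosen after their values were seen. Fos stood at 7.32, 5.19, 2.35 and 8.98 CPM, from 88, 86, 35 and 99 UMIs. Fos was lower in aKO by 1.62 (1.06 to 2.25) on the log2 scale, and by 0.80 in male nuclei alone, while within wild type it was higher in female nuclei by 1.00. Egr4 stood at 14.6, 9.36, 7.11 and 18.5 CPM, Egr1 at 33.8, 26.1, 19.9 and 34.4, and Btg2, an antiproliferative coregulator, at 12.9, 11.95, 5.84 and 17.0. In each of these 4 genes aKO was the lowest library and nKO the highest. CA2/CA3 nuclei had the same lowest and highest libraries for Fos (2.66, 2.05, 1.11 and 5.05 CPM), Egr1 (7.57, 10.2, 4.43 and 12.2) and Btg2 (8.69, 6.56, 3.42 and 17.7). Egr4 in CA2/CA3 was also highest in nKO but lowest in wild type, at 2.10, 4.82, 2.21 and 8.28 CPM. Jun differed, at 8.15, 6.76, 7.85 and 4.90 CPM, lowest in nKO. Without doublets Jun stood at 7.97, 4.755, 6.76 and 4.63 CPM, with tKO then close to nKO. In aKO in male nuclei alone Egr4 was lower by 0.69, Egr1 by 0.52 and Btg2 by 1.18, so Egr1 did not reach 1.5-fold there.

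Further genes of the activity list were chosen after their values were seen. Arc, which drives removal of AMPA receptors, stood at 40.2, 24.3, 23.8 and 42.1 CPM, with wild type and nKO high and tKO and aKO low. In nuclei thinned to 2000 UMIs Arc was detected in 8.56%, 4.15%, 4.16% and 8.99% of CA1 nuclei, against 0.738% of wild-type granule nuclei. Scg2, a secretory granule protein, stood at 95.4, 59.0, 62.0 and 63.9 CPM, and Ier5 at 10.6, 5.43, 7.38 and 5.17, both highest in wild type alone.

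The NR4A nuclear receptors, which regulate memory-related transcription, were highest in nKO in CA1 nuclei, and also in CA2/CA3 nuclei and in the capped group. Nr4a3 stood at 60.8, 76.5, 48.4 and 104 CPM, higher in nKO by 0.78 with all nuclei and in male nuclei alone. In CA2/CA3 it stood at 85.8, 107, 77.5 and 113 CPM, and in the capped group at 36.4, 42.1, 33.8 and 49.7. In granule nuclei Nr4a3 was higher by 1.78 (1.42 to 2.19) in tKO and by 1.60 (1.19 to 2.04) in nKO, and without doublets by 1.46 (1.02 to 1.97) and 1.90 (1.46 to 2.40), so the order of these 2 libraries turned. Nr4a3 was detected in 9.44%, 11.7%, 9.56% and 15.7% of thinned CA1 nuclei. Nr4a2 was higher in nKO by 0.69, and Nr4a1 stood at 77.7, 67.7, 54.5 and 85.6 CPM, within 1.5-fold of wild type in tKO, aKO and nKO. Npas4, a factor induced by calcium entry, stood at 16.1, 18.6, 13.9 and 23.4 CPM. In granule nuclei 10, 4 and 7 of the 25 genes were higher and 0, 2 and 0 lower, with medians of 0.42, 0.01 and 0.24. Of all genes tested there 3.17%, 1.48% and 0.617% were higher and 2.63%, 2.71% and 2.49% lower. Without doublets the granule counts were 3, 4 and 9 higher and 3, 2 and 0 lower. Among all genes 0.482%, 0.905% and 0.774% were higher and 2.61%, 2.73% and 2.56% lower. Of the 9 higher in nKO, only Nr4a2 and Nr4a3 reached the minimum of UMIs of these shares. Below it were Dusp6 (5 UMIs in wild type and 10 in nKO), Fos (13 and 22), Dusp1 (13 and 17) and Arc (22 and 44). Npas4 (22 and 40), Nptx2 (27 and 34) and Vgf (37 and 54) were below it too. With doublets in, the counts also held such genes, as Arc in nKO (32 and 51). The granule counts and shares are thus not like for like.

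**Figure D5:**
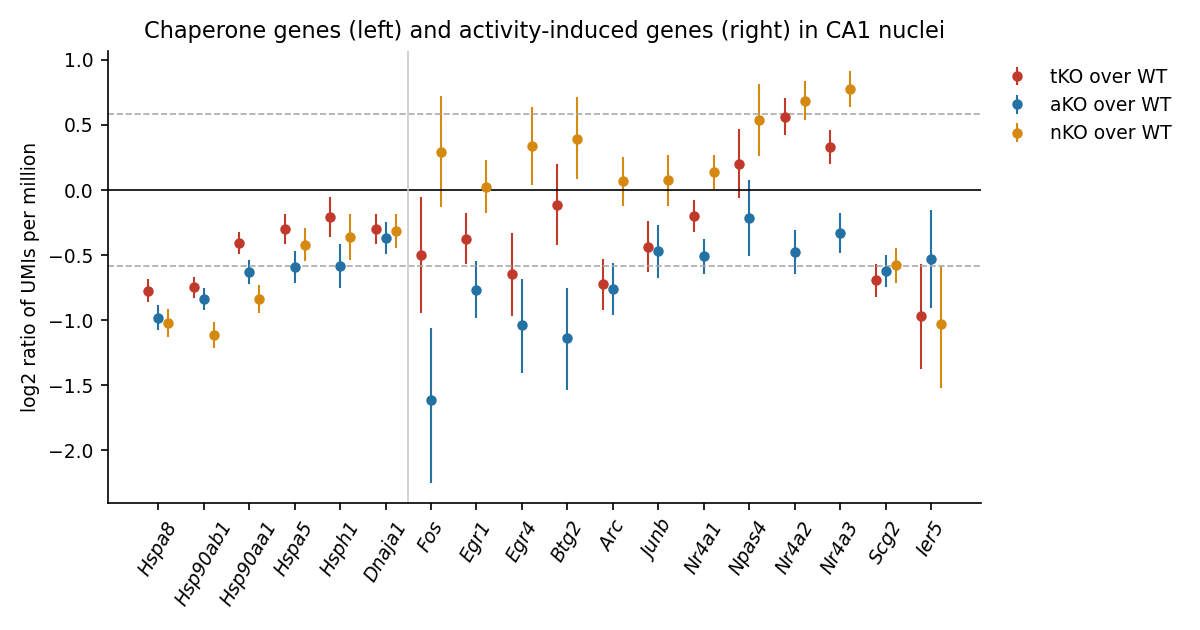
Log2 ratio to wild type of 6 chaperone and 12 activity-induced genes in CA1 nuclei of the 3 knockout libraries (axis in log2 units), with 95% intervals of counting error and dashed lines at 1.5-fold. The chaperones Hspa8 and Hsp90ab1 lie below wild type in all 3, and Fos, Btg2 and Egr4 are lowest in aKO.

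Lists of receptor and adhesion genes held fewer genes apart in tKO once doublets were removed, and lists of channels about as many. Over all genes 2.19% were higher and 2.29% lower in tKO, and 0.537% and 2.38% without doublets. Of the 22 glutamate receptor genes 6 were higher in tKO and none lower, and without doublets none was apart. Of the 32 potassium and related channel genes 4 were higher, and 3 without doublets, and of the 29 sodium and calcium genes 2 in either case. Grik1, a kainate receptor subunit of interneurons, stood at 16.4 CPM in wild type and 33.8 in tKO, higher by 1.04, and by 0.34 without doublets. Of the 50 adhesion genes 10 were higher in tKO, against 1 higher and 1 lower without doublets. Sema5a, a guidance semaphorin, was higher by 0.84 with all nuclei and lower by 1.15 without doublets, so its sign depended on them. Synpr, a granule cell vesicle gene, stood at 30.4, 78.6, 59.5 and 23.7 CPM, higher in tKO by 1.36 and lower by 0.41 without doublets.

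Other tKO differences stayed past 1.5-fold without doublets. Camk2d, a CaM kinase subunit, stood at 41.9, 77.0, 47.0 and 42.7 CPM, higher in tKO by 0.88 (0.73 to 1.03), by 0.85 without doublets and by 1.42 in male nuclei alone. Sv2c, a vesicle glycoprotein, stood at 4.24, 11.6, 5.84 and 4.99 CPM, higher by 1.44, and by 1.48 without doublets. Dpp10, the gene that varied most among nuclei with doublets in, stood at 642, 1307, 582 and 638 CPM, higher in tKO by 1.03, and by 0.72 without doublets. Rab3a, a vesicle GTPase, was lower, at 44.4, 27.9, 35.4 and 30.3 CPM (-0.67, and -0.73 without doublets).

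Differences were also found outside tKO. Kcnn3, an SK potassium channel, stood at 20.5, 33.7, 40.5 and 26.2 CPM, higher in aKO by 0.98 (0.77 to 1.21) and by 0.94 without doublets. Adra1a was higher in all 3 knockouts, by 0.88, 0.79 and 0.78, and by 0.95, 0.72 and 0.81 without doublets. In male nuclei alone Adra1a was higher by 0.89 in tKO, 0.07 in aKO and 0.54 in nKO. It also marks the group capped by the rule. Nnat, another gene of that group, was higher in aKO by 0.63, while female nuclei of wild type lay above male ones by 1.11. Kcnt1, a sodium-activated potassium channel, stood at 12.8, 19.8, 15.7 and 20.5 CPM, higher in tKO by 0.62 and in nKO by 0.68.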

How the data were processed

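Gene counts per barcode are the authors' deposited UMI matrices, 1 per library, and the submitters' processing notes name Cell Ranger ARC 2.0.0 and the mm10 build. The deposited counts cover barcodes with 400 to 5998 detected genes, no barcode annotation was used here, and 20211 gene symbols were common to the 4 libraries. Here UMIs were summed per library and class, scaled to CPM, and compared as log2 ratios with a pseudocount of 1 count in each sum (python 3.11.15, numpy 2.4.6, scipy 1.17.1, pandas 2.3.3). Intervals are 95% exact conditional binomial for ratios and Clopper-Pearson for shares, and as PCR and nuclei are not independent replicates they cover counting error only. Doublets were called per library by Scrublet as run in scanpy 1.11.5 (0.8% of barcodes expected for each 1000 loaded into the call) and stayed in unless stated. TMM factors came from edgeR 4.0.16. Rule genes, Xist, Tsix, genes of the Y chromosome and mitochondrial genes were left out of counts of genes apart.

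Granule nuclei needed at least 4 of 8 granule markers, with Prox1 or C1ql2 among them, and at most 1 rule gene of CA1. CA2/CA3 nuclei needed at least 3 of 11 markers, 2 UMIs each of Cpne4 and Nectin3, at most 2 CA1 rule genes without Fibcd1, and a limit of 1 UMI on Prox1 summed with a gene that is not reported here. Both allowed at most 1 UMI of Gad1 and Gad2. These gates were set after the files were seen, and the CA1 members and gene lists were chosen with earlier results of these data known. Genes named per knockout were the 5 highest and 5 lowest log2 ratios among genes at least as high in CA1 as in other nuclei, not all of which are printed, the 5 furthest the same way in all 3 knockouts, the 4 widest gaps of the neuronal split, the leading genes of the class comparisons, and list members with at least 200 UMIs. Of the gene symbols, 19802 (98.0%) were found once in GENCODE M21. Alternatives were other scalings, minimum counts, folds and marker numbers, thinning, doublet removal, male nuclei alone, and leaving out each library from the class counts. The scripts were tested on simulated counts.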

Additional observations from a re-analysis of the deposited data

Results flagged for a closer look

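Neurod6, a transcription factor of pyramidal neurons, differed between tKO and wild type in opposite directions in 2 classes. In CA1 nuclei it stood at 121 CPM in wild type and 80.0 in tKO, a log2 ratio of -0.59. In dentate granule nuclei, where its level is low, it stood at 3.43 and 8.37 CPM, a log2 ratio of 1.27. The 2 ratios differ by -1.86. With 1 library per genotype the difference was not tested. Without doublets the CA1 ratio was -0.46 and the granule ratio -1.28 (-2.40 to -0.36), from 13 UMIs in tKO and 31 in wild type, so the 2 classes then lay on the same side of wild type.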

How the results depend on the processing

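No paired analysis was possible because each genotype has 1 library. The settings of at most 5% mitochondrial UMIs and of male nuclei with doublets removed were chosen after seeing the data. CA1 shares with at least 4 rule genes were 8.17%, 4.12%, 10.1% and 8.80%, after thinning 2.00%, 1.12%, 2.66% and 2.12%, and without doublets 5.09% in tKO and 12.9% in aKO. Genes apart from wild type in tKO, aKO and nKO numbered 99, 31 and 29 with at least 1000 UMIs, 2055, 1340 and 1570 with at least 20, 86, 15 and 22 at 2-fold, and 124, 51 and 50 after thinning. Male nuclei alone gave 128 in aKO and 122 in nKO, doublet removal 250 in tKO, and male nuclei without doublets 180 in tKO and 115 in nKO. Class counts at 1.5-fold were 1160 higher and 1383 lower than granule, and 806 and 721 than CA2/CA3. With at least 1000 UMIs they were 427, 471, 283 and 185. Leaving out 1 library gave 674 to 713 higher and 754 to 781 lower than granule, and 442 to 479 and 318 to 350 than CA2/CA3. TMM scaling kept each count within 1.5 times. The sign turned for Sema5a in tKO (-1.15 without doublets, -0.88 in male nuclei without doublets), Synpr without doublets (-0.41 in tKO, -0.079 in aKO), Grm2 in tKO (-0.014 in male nuclei without doublets, -0.18 thinned), and, thinned, Oprm1 in tKO (-0.21), Htr1a in nKO (0.12) and Atg101 in nKO (0.022). Neurod6 in granule nuclei turned to -1.28 in tKO without doublets, a setting chosen after seeing the data. The cause was not tested. Fewer genes reach a higher minimum or a smaller sum by construction. Genes at low CPM have the widest intervals of counting error, which limits what this depth shows.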
